A study of Mus musculus with 4 samples.

Results

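The genes of 9 hepatokines and other secreted metabolic factors were followed in mouse liver after GALP, the hypothalamic galanin-like peptide, was given through the nose. The genes were chosen by name, and all probes of the array that carried one of these names were used. These were Fgf21, Nrg4, Angptl4, Ahsg, Fetub, Lect2, Enho, Inhbe and Gdf15, which gave 10 probes for 9 of the 26582 gene names on the array. Of these factors, Nrg4 was higher after GALP in both pools of treated mice (2.01-fold, log2 ratio 1.01 ± 0.17, SD, n = 2 pools). Enho was higher in 1 pool and lower in the other. Gdf15 and Fgf21 had their lower ratios in the pool with less weight loss, while the other 5 genes lay within 1.29-fold of the control in either pool.

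Hepatokines are proteins that the liver releases into the blood and that act on other organs or on the liver itself. FGF21 and GDF15 are made under nutrient and cellular stress, in part through the transcription factor ATF4, and FGF21 is also a classical target of the fatty acid receptor PPARα. NRG4 is an epidermal growth factor family ligand best known as a product of adipose tissue that acts on the liver. ANGPTL4 inhibits lipoprotein lipase, and the fetuins, LECT2 and inhibin βE are products of hepatocytes.

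All mice were male C57BL/6J animals with diet-induced obesity (DIO). They were bought at 8 weeks of age, ate a high-fat diet for 14 weeks and weighed 40 g or more. GALP mice received porcine GALP at 1 nmol in saline with 5% α-cyclodextrin and control mice received saline, each in 2 µL through the nose on 11 consecutive days with the diet continued. Liver RNA of 4 GALP mice with greater weight loss, of 4 GALP mice with less weight loss and of 8 saline mice was pooled into 3 pools. The GALP groups were thus formed on an outcome, body weight. Each GALP pool shared 2 arrays with the control pool, once in each dye orientation, which gave 4 arrays on 1 slide. The 2 arrays of a pool held the same extracts and were averaged, so n is 2 pools. Both pools were compared with the same control pool, and neither the SDs nor the tests hold the variation among control mice. In the labels the control channel carries a weight loss group as well, and treating the control as 1 pool follows the methods.

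All 10 probes were well above background in all 8 channels, and none was left out for an outlier mark. Between 40.5% and 46.7% of the spots in a channel were well above background. The 8 hepatocyte markers found on the array, of 10 listed, were also well above background on every array, and their summed signal in GALP liver was between 0.929 and 1.05 times that of the control. The 10 pancreatic acinar markers examined, a list written after values were seen, were also well above background in all channels. Their summed signal was 0.0838 and 0.0711 times the control for greater weight loss and 1.68 and 1.76 times the control for less weight loss, with median log2 ratios of -3.73 and 0.81. The part of pancreatic RNA in the ratios of the 9 genes was not tested. In liver tissue, fewer cells of a type and less RNA per cell cannot be told apart.

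The methods give a p threshold of 0.01 and folds of over 1.5 or under 0.75 in both pools, but not the number of arrays on which the p must hold. Here it had to hold on all 4 arrays, with the same direction on each. By this reading 1 of the 10 probes was called higher and 0 were called lower. Over all 41037 probes with values this rule called 0.0585% higher and 0.132% lower. Over the 15707 probes with signal on every array it called 0.153% higher and 0.344% lower. With limma and Benjamini-Hochberg adjustment over all probes, 0 of the 10 passed an adjusted p of 0.05, and 0 of all 41037 did. Before adjustment, limma gave 2 of the 10 (Nrg4 and Angptl4) a p under 0.05 on the higher side and 0 on the lower side, against 4.99% and 6.6% of all probes. The median log2 ratio of the 10 probes was -0.04.

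**Figure D1:**
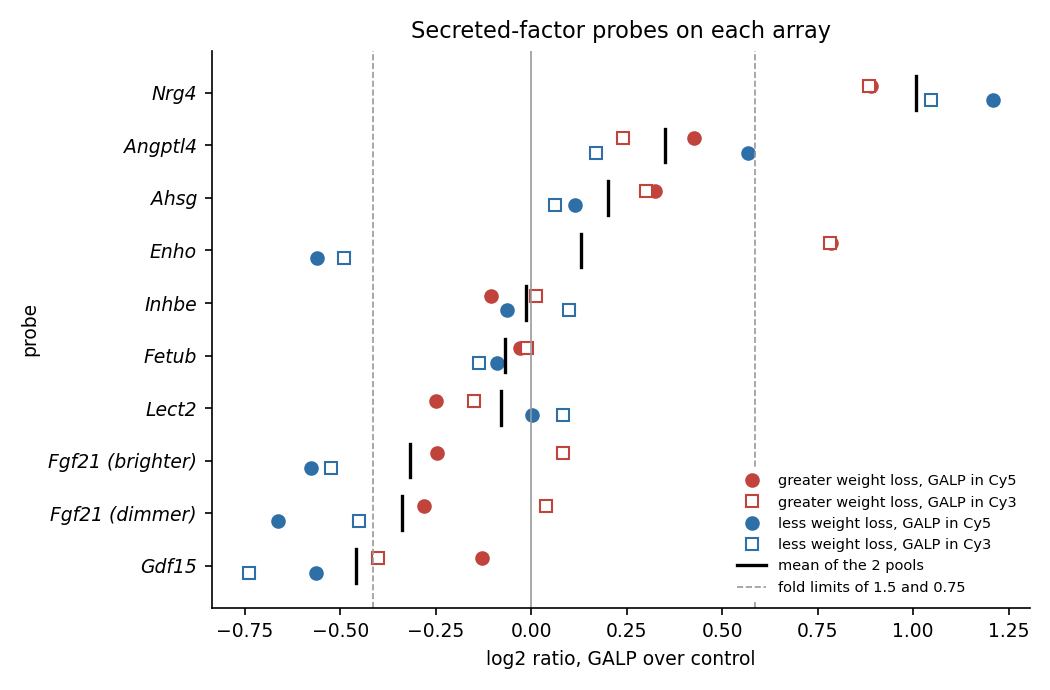
Log2 ratio of GALP over control (x axis) for the 10 probes of the secreted factors (y axis) on each of the 4 arrays, with the pool shown by colour and the dye of the GALP extract by symbol. Dashed lines mark folds of 1.5 and 0.75. The 4 Nrg4 points lie between 0.89 and 1.21, and the Enho points of the 2 pools lie on opposite sides of 0.

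Nrg4 was the factor with the largest change. Its processed signal in the pool with greater weight loss was 2822 with GALP in Cy5 and 2457 with GALP in Cy3, against 1523 and 1331 in the control channel of the same arrays. In the pool with less weight loss it was 3703 and 3054, against 1603 and 1480. The GALP signals did not overlap with those of the control. The log2 ratios were 0.89 and 0.89 for greater weight loss and 1.21 and 1.05 for less weight loss, or 1.85-fold and 2.18-fold per pool. The deposited p-values were 5.17e-05, 5.57e-05, 1.97e-07 and 3.58e-06 in the same order. With limma the standard error was 0.10, the unadjusted p was 0.0245 and the adjusted p was 0.383. The call from limma depended on the processing, with an adjusted p of 0.0328 (log2 ratio 0.92) after normexp background correction and loess and 0.131 over the probes with signal alone.

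The lowest of the 4 Nrg4 ratios was above every ratio of the other 9 probes, of which the highest was that of Enho at 0.78. In the mean of the pools, Nrg4 ranked 18 of the 15707 probes with signal, and 0.115% of these were at least as high. The probe (NM_032002) lies on chromosome 9, 55074489 to 55074548, minus strand of mm9. The 5 genes whose probes ran most like Nrg4 over the 4 arrays, by Euclidean distance of the log2 ratios among 14435 probes above background in all channels, were Acot3 (0.191), Osbpl5 (0.199), Por (0.363), Slc41a3 (0.385) and Cyp2b13 (0.403). Acot3 is an acyl-CoA thioesterase and Por is the electron donor of microsomal cytochrome P450 enzymes. The distance was taken over ratios that share the control pool, and it is a description of 4 arrays.

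The RefSeq promoter table (GRCm38.p6, a different build from the probe positions) held 9 promoters of 7 of the genes, each from 250 bases before to 50 after the start site. Enho and Angptl4 were not among them. The promoter of Nrg4, the factor that was called, is shown here. The capitals mark the letters TGACCT, the reverse complement of AGGTCA, which is the hexamer of nuclear receptor sites such as those of PPARα with RXR.
Nrg4 promoter, chr9:55283576-55283875, minus strand: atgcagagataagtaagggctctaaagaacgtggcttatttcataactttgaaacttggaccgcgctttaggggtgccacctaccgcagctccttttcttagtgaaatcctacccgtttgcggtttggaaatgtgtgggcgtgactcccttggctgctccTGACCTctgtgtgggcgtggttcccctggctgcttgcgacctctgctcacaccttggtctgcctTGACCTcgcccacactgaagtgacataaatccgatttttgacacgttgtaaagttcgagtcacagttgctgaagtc
The matches began at -90 and -26 from the start site. This hexamer, searched on both strands, was in 16.3% of 32851 promoters of the table and in 2 of the 9 promoters here, the other being 1 of the 2 promoters of Gdf15 (at -55). A match of letters is not evidence of binding.

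**Figure D2:**
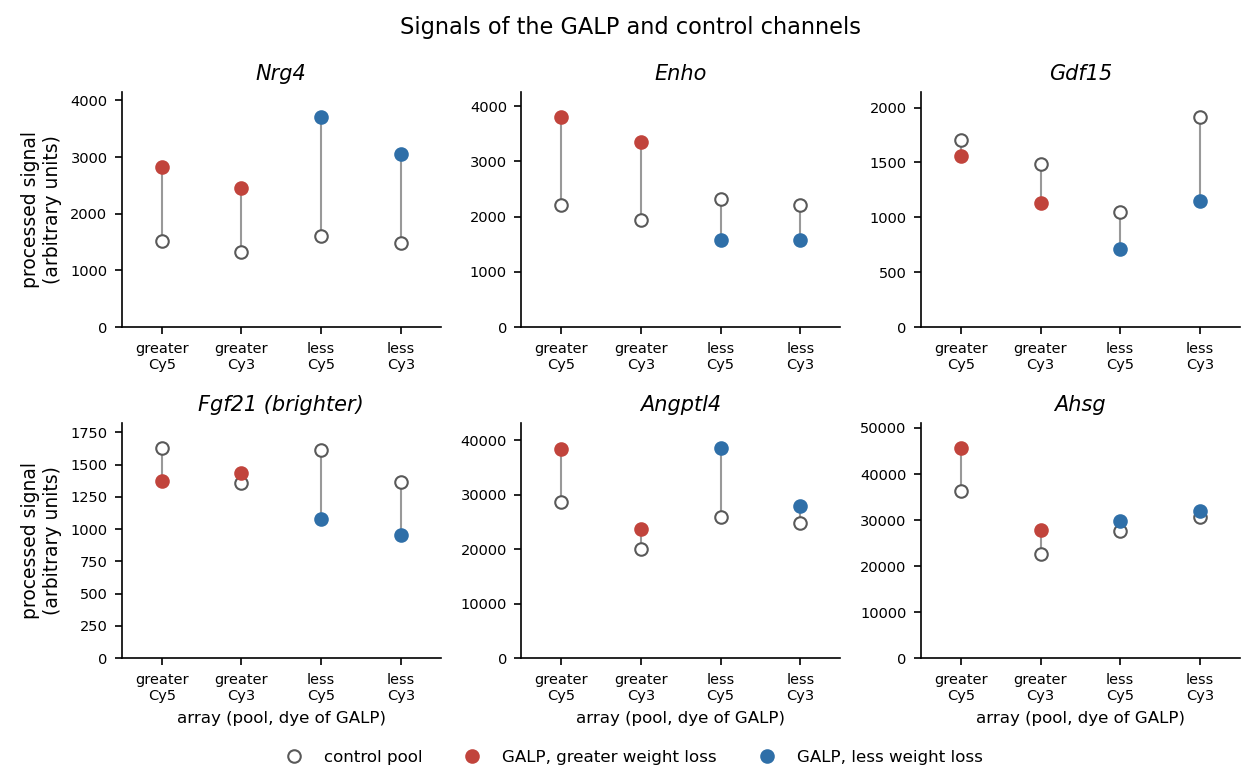
Processed signal (linear axis) of Nrg4, Enho, Gdf15, the brighter Fgf21 probe, Angptl4 and Ahsg in the GALP and control channels of the 4 arrays. Each probe has 1 panel, and lines join the 2 channels of an array. Nrg4 rises from between 1331 and 1603 to between 2457 and 3703 on all 4 arrays, whereas the Enho lines run in opposite directions in the 2 pools. Signals of different probes are not comparable.

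Fgf21 encodes the fasting and stress hormone that acts through β-klotho and FGF receptors. The brighter of its 2 probes gave GALP signals of 1370 and 1438 in the pool with greater weight loss, against 1626 and 1359 in the control. In the pool with less weight loss the signals were 1083 and 952, against 1614 and 1369. The signals of the less weight loss pool lay below all 4 control signals, and those of the greater weight loss pool lay within their range. The log2 ratios were -0.25 and 0.08, then -0.58 and -0.52, or 0.944-fold and 0.683-fold per pool. The 2 arrays of the greater weight loss pool thus disagreed in direction between the dyes.

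The dimmer Fgf21 probe gave log2 ratios of -0.28 and 0.04 for greater weight loss and -0.66 and -0.45 for less weight loss, so both probes ran alike. The mean was -0.32 ± 0.33 (SD, n = 2) for the brighter probe and -0.34 ± 0.31 (SD, n = 2) for the dimmer probe, with adjusted p = 0.702 for both by limma. After normexp background correction and loess, the means were -0.20 and -0.17. Of the deposited p-values, only those of the array with less weight loss and GALP in Cy5 were under 0.01 (0.00634 and 0.00212). The brighter probe lies at 52869305 to 52869364 on chromosome 7 of mm9, minus strand, and 80% of its bases are A or T. The dimmer probe extends over 52869680 to 52870294, a span of 615 bases for a 60-base probe, so it crosses a splice junction. Its sequence, from the coding region, is shown as the part of the transcript that was measured.
Fgf21 dimmer probe: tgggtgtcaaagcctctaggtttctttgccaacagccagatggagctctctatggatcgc

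Gdf15, a member of the TGF-β superfamily that lowers food intake through the brainstem receptor GFRAL, was lower than the control on all 4 arrays. GALP signals were 1560 and 1126 for greater weight loss, against 1707 and 1487 in the control. They were 709 and 1145 for less weight loss, against 1048 and 1912. The GALP and control signals overlapped between arrays, but within each array GALP was the lower. The log2 ratios were -0.13, -0.40, -0.56 and -0.74, or 0.832-fold and 0.636-fold per pool. The mean of -0.46 ± 0.27 (SD, n = 2) had an unadjusted p of 0.145 and an adjusted p of 0.605 by limma. The deposited p was under 0.01 on both arrays of the less weight loss pool (0.00757 and 5.94e-04) and on neither of the other pool (0.525 and 0.0534). The fold of the greater weight loss pool did not reach 0.75, and 97.2% of the probes with signal were at least as high in the mean. The probe (NM_011819) lies on chromosome 8, 73153471 to 73153530, minus strand.

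The promoters of Fgf21 and Inhbe are shown because both held a match to TGATGNAA, the composite element of ATF4 and C/EBP, while their transcripts were not called. Capitals mark TTGCATCA, its reverse complement, and in Fgf21 also the E-box CACGTG.
Fgf21 promoter, chr7:45615441-45615740, minus strand: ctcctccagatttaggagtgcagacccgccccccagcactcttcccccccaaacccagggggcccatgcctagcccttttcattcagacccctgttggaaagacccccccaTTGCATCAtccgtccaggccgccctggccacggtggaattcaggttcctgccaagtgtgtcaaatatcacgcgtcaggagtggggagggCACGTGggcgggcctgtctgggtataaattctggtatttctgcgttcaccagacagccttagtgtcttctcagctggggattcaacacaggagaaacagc
Inhbe promoter, chr10:127351799-127352098, minus strand: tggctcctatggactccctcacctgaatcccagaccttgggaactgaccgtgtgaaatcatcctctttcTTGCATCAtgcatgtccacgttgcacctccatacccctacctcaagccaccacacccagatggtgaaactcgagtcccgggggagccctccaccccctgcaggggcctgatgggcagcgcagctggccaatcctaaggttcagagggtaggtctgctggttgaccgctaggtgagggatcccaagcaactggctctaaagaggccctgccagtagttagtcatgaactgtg
The composite element began at -139 in Fgf21 and at -181 in Inhbe, and 3.97% of the 32851 promoters held it on either strand. The E-box was at -50 in Fgf21 and at -83 in a promoter of Gdf15, and 7.15% of promoters held it. The cyclic AMP response element TGACGTCA was in 0 of the 9 promoters and in 1.79% of all.

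Enho encodes adropin, a peptide of liver and brain linked to fuel choice and insulin sensitivity. Its GALP signals were 3798 and 3341 in the pool with greater weight loss, against 2206 and 1942 in the control. In the pool with less weight loss they were 1575 and 1579, against 2323 and 2216. All control signals lay between those of the 2 GALP pools. The log2 ratios were 0.78 and 0.78 for greater weight loss and -0.56 and -0.49 for less weight loss, or 1.72-fold and 0.695-fold per pool. The dye orientations differed by at most 0.07 within a pool.

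The 2 pools thus differed by 1.31 in the log2 ratio of Enho, or 2.48-fold. With 1 pool per weight loss group this difference has no test. It was the only difference over 2-fold among the 10 probes, against 1.14% of the probes with signal. The mean of 0.13 ± 0.93 (SD, n = 2) had an adjusted p of 1 by limma. The deposited p-values were 2.91e-04, 2.95e-04, 0.00771 and 0.0194, of which 3 were under 0.01. The probe (NM_027147) lies on chromosome 4, 41585257 to 41585316, minus strand.

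Skeletal muscle markers moved with the same split. The summed signal of all 6 (Acta1, Ckm, Myh4, Tnnt3, Myl1 and Mb) was 1.20 and 1.21 times the control for greater weight loss, whereas it was 0.167 and 0.219 times the control in the other pool. Their median log2 ratio was 0.33 and -2.43. Pancreatic acinar markers split between the pools the opposite way, as given above. Of the 3 adipocyte markers with signal, Adipoq split between the pools at 0.38 and -0.26, while Cidec (0.74 and 0.76) and Cfd (-0.89 and -0.74) did not. Lep, Retn and Ucp1 were not well above background in any channel. The part of these tissues in the difference of Enho was not tested.

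**Figure D3:**
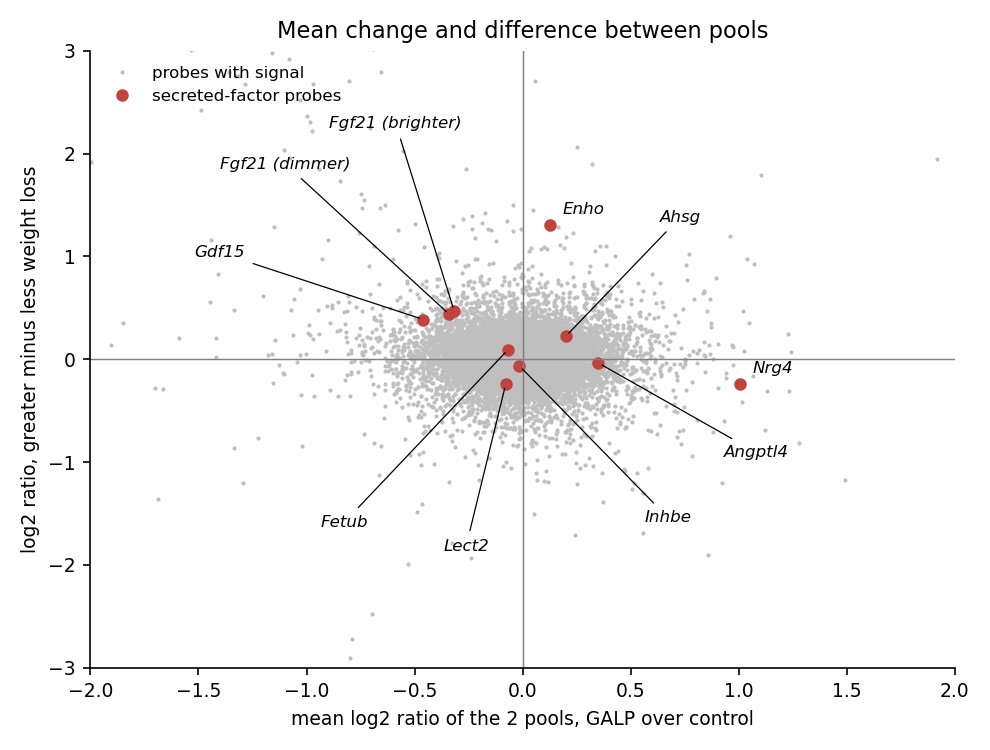
Mean log2 ratio of the 2 pools (x axis) and log2 ratio of the greater minus the less weight loss pool (y axis) for the 15707 probes with signal (grey; 62 lie outside the axes) and the 10 probes of the secreted factors (red). Nrg4 lies to the right at 1.01 and Enho at the top at 1.31, and the remaining probes lie nearer the origin.

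Angptl4, the lipoprotein lipase inhibitor and a PPAR target, gave GALP signals of 38430 and 23694 for greater weight loss, against 28610 and 20061 in the control. The log2 ratios were 0.43 and 0.24 for greater weight loss and 0.57 and 0.17 for less weight loss. All 4 were above 0, and in both pools the ratio was higher with GALP in Cy5, by 0.19 and 0.40. The pools were close to each other at 1.26-fold and 1.29-fold. The mean of 0.35 ± 0.03 (SD, n = 2) had an unadjusted p of 0.00875 and an adjusted p of 0.374 by limma. Neither fold reached 1.5, and 1 of the 4 deposited p-values was under 0.01 (0.00692). The value was 0.50 from the arrays with GALP in Cy5 alone, 0.21 with GALP in Cy3 alone and 0.12 after normexp background correction and loess. The probe (NM_020581) lies on chromosome 17, 33911880 to 33911939, minus strand.

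The fetuins are abundant plasma glycoproteins, and Ahsg (fetuin A) is known as an inhibitor of the insulin receptor. Ahsg gave log2 ratios of 0.32 and 0.30 for greater weight loss and 0.11 and 0.06 for less weight loss, all above 0. Its mean was 0.20 ± 0.16 (SD, n = 2), with adjusted p = 0.701 by limma. Fetub (fetuin B) gave -0.03 and -0.01, then -0.09 and -0.14, with a mean of -0.07 ± 0.07 (SD, n = 2) and adjusted p = 0.702. After normexp background correction and loess, Fetub was -0.21 with an adjusted p of 0.0986 by limma. The probes of this gene pair lie 40262 bases apart on chromosome 16 of mm9, at 22899415 to 22899474 for Ahsg and 22939736 to 22939795 for Fetub. Ahsg was above Fetub on each array, but a direct test of this pair was not made.

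Lect2, which encodes a chemotactic factor made by hepatocytes, gave -0.25 and -0.15 for greater weight loss and 0.00 and 0.08 for less weight loss. Its mean was -0.08 ± 0.17 (SD, n = 2), with adjusted p = 0.830 by limma. Inhbe, the inhibin βE subunit whose product activin E acts on adipose lipolysis, gave -0.11, 0.01, -0.06 and 0.10. Its mean of -0.01 ± 0.05 (SD, n = 2) was the closest to 0 of the 10 probes, with adjusted p = 0.948 by limma. The sign of Inhbe followed the dye, negative with GALP in Cy5 and positive with GALP in Cy3. The probes lie on chromosome 13, 56643950 to 56644009 (Lect2) and on chromosome 10, 126786719 to 126786778 (Inhbe), both on the minus strand.

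In the order of the mean log2 ratio, Nrg4 came first, followed by Angptl4, Ahsg, Enho, Inhbe, Fetub, Lect2, Fgf21 and Gdf15. The array values of Nrg4 and Angptl4 did not overlap, and those of each later pair of neighbours did.

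The receptors of these factors were read from a list of 22 receptors and binding partners, of which 13 had signal, 0 were called higher and 0 were called lower. Their median log2 ratio was 0.05, against -0.01 over all 11393 genes with signal. Of these 11393 genes, 22 were called higher and 50 lower. Erbb4, the receptor of NRG4, gave 0.11 with GALP in Cy5 and -0.82 with GALP in Cy3 for greater weight loss, and 0.28 and -1.05 for less weight loss. Its sign followed the dye in both pools, so its pool means of -0.35 and -0.38 have no settled direction. Its partner Erbb3 gave 0.02 and 0.18 in the 2 pools. Klb, the β-klotho co-receptor of FGF21, gave -0.42 and -0.43 and was below 0 on all 4 arrays. Fgfr4 gave -0.14 and -0.42, Fgfr2 gave -0.03 and -0.27, and Fgfr3 gave 0.04 and 0.05. Fgfr1 was not among the genes with signal, as judged by its brightest probe. Lpl, the lipase that ANGPTL4 inhibits, gave 0.69 and -0.05, and the vascular receptor Tie1 gave 0.25 and 0.11. The sign of Tie1 also followed the dye in both pools.

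Of 22 family relatives, 14 had signal and none was called in either direction (median 0.04). The genes with the largest ratios among them were Gdf10 (0.34 ± 0.16) and Tgfb1 (0.26 ± 0.19) above 0, and the activin subunits Inhbb (-0.41 ± 0.01) and Inhba (-0.40 ± 0.01) below 0, each as mean ± SD of 2 pools. Of 28 other factors secreted by the liver, 26 had signal and again none was called (median 0.03). Gpnmb gave 2.89 for greater and 0.94 for less weight loss, but 1 of its 4 deposited p-values missed the threshold. Lcn2, an acute phase lipocalin, gave 0.59 and 0.68. Orm1, a plasma acute phase protein, gave -0.27 and -0.04.

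Genes under the 2 regulators of Fgf21 were described in the same way. Of 19 PPARα-regulated genes, 16 had signal and 2 were called higher and 0 lower, with a median of 0.06. Over all 11393 genes with signal, 22 were called higher and 50 lower. The called genes of the PPARα list were the acyl-CoA thioesterases Acot1 (0.68 ± 0.06) and Acot3 (1.07 ± 0.12, by a brighter probe than the one nearest to Nrg4). Pdk4, the kinase that restrains pyruvate oxidation, gave 0.08 and -0.37, and the lipid droplet gene Plin2 gave -0.05 and -0.07, with the sign following the dye. Of 17 ATF4-regulated genes, 15 had signal and none was called, with a median of 0.17. Asns, asparagine synthetase, gave 2.00 for greater and 0.21 for less weight loss, and Atf3 gave 1.01 and 0.27. Ddit3, which encodes CHOP, gave -0.16 and -0.56, and Atf4 itself gave -0.23 and -0.38.

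**Figure D4:**
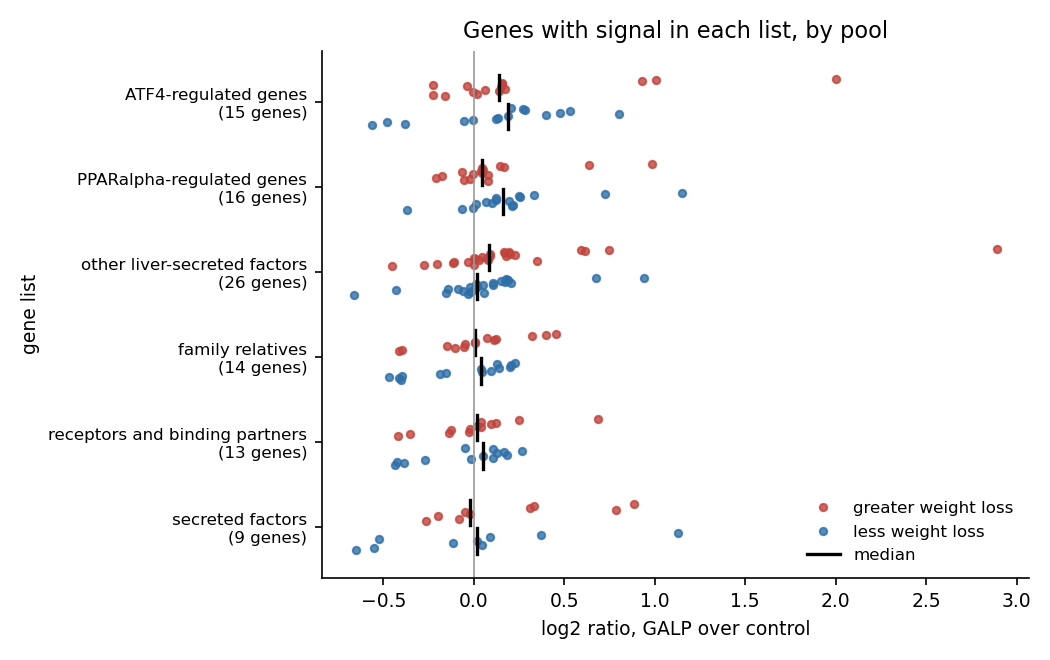
Log2 ratio of GALP over control in each pool for the genes with signal of each list shown, with 1 point per gene and pool, and a bar at the median of each list and pool. Medians of the receptor, relative and secreted lists are at most 0.08. For greater and less weight loss, those of the PPARα-regulated genes lie at 0.04 and 0.16, and those of the ATF4-regulated genes at 0.14 and 0.19.

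Markers of other cell types in the liver were set beside Nrg4, which was higher in both pools. Of 8 Kupffer cell and macrophage markers, all had signal, Marco was called higher, and the summed signal was between 1.13 and 1.24 times the control. Of 7 endothelial markers, Lyve1 was called higher, and the summed signal was between 0.877 and 1.06 times the control. Among all 11393 genes with signal, 22 were called higher. The sum was between 0.924 and 1.20 for stellate cell markers and between 0.873 and 1.38 for bile duct markers. For the adipocyte markers it was between 1.42 and 1.91 on the 4 arrays. Of the 3 adipocyte genes with signal, only Cidec was higher in both pools (log2 ratios 0.74 and 0.76). Cfd was lower in both (-0.89 and -0.74) and Adipoq split (0.38 and -0.26), so the sum does not show a rise shared by these markers. The part of these cells in the Nrg4 ratio was not tested.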

How the data were processed

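Liver RNA pools were compared on 4 two-colour Agilent arrays, each with 43379 spots. The processing notes name Feature Extraction 11.0.1.1, and the methods of the paper name another version. The grid placement version in the file headers is 12.0.3.1. The authors used the software, with background subtraction and LOWESS dye normalization, for the processed intensity of both channels. Its log10 ratio, as deposited, is Cy5 over Cy3, and the p-value deposited with it comes from an error model within 1 array. The deposited table of the series gives log10 ratios of GALP over control. These matched the scanner values within 0.001 on the log2 scale apart from spots that the software had set to 0. The spots that differed numbered between 12766 and 15262 of 43379 per array.

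Ratios were put on the log2 scale as GALP over control, outlier spots were left out, spots of a probe were averaged, and then the 2 arrays of a pool. The methods do not say on how many arrays their p threshold of 0.01 must hold, and all 4 was the reading taken here. Probes were tested with limma 3.58.1 in R 4.3.3 (lmFit and eBayes on 2 pool ratios against 0, 1 residual degree of freedom, Benjamini-Hochberg over 41037 probes). A probe with signal had, on each array, 1 or both channels well above background. Lists used the brightest probe of each gene. From them the text names the genes that were called and the 2 genes each way with the largest mean ratio among those well above background in every channel, together with receptors, marker genes and Atf4, which were chosen after their values were seen. The values of 1 gene that this selection names are not reported here. The factors and lists were chosen with earlier results of these data known.

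Alternatives were normexp (offset 50) with loess, centring, the series table, outlier spots kept, probes with signal, the median of spots, 1 dye orientation, 1 pool or 1 array left out, other p and fold rules, the pool as a random block and an intensity trend. The number of arrays limits the precision. Positions of probes are on mm9 as the files give them, and promoters are from RefSeq (GRCm38.p6). Python 3.11.15 with numpy 2.4.6, pandas 2.3.3, matplotlib 3.10.9 and biopython 1.88 were used.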

Additional observations from a re-analysis of the deposited data

Results flagged for a closer look

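The 2 pools moved in opposite directions on both arrays each for Enho (greater minus less weight loss, 1.31 on the log2 scale) and for Lect2 (-0.24, with 1 array of the less weight loss pool at 0.00). The medians of 4 marker lists also had opposite signs in the 2 pools, with differences of 0.63 for adipocyte, -0.21 for bile duct, 2.76 for skeletal muscle and -4.55 for pancreatic acinar markers. The bile duct median of the less weight loss pool was only 0.005, over 3 genes with signal. The adipocyte median is that of Adipoq, and the summed adipocyte signal was above the control on all 4 arrays (1.42 to 1.91 times). Of the adipocyte genes with signal, only Cidec was higher in both pools (0.74 and 0.76), while Cfd was lower in both (-0.89 and -0.74). The differences between the pools were not tested, since each weight loss group is 1 pool and both share the control pool.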

How the results depend on the processing

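Nrg4 was called higher under every alternative run for the calls, and its log2 ratio lay between 0.92 and 1.05 over settings with both pools, with adjusted p from 0.0328 to 0.592 by limma. Its adjusted p passed 0.05 under normexp with loess (log2 ratio 0.92). The members called were 2 higher without the pool with less weight loss (Nrg4 and Enho) and 1 lower without the pool with greater weight loss (Gdf15). Enho was -0.0105 under normexp with loess. Inhbe, near 0, was 0.00498 after centring and 0.0555 with GALP in Cy3 only, and it ran from -0.0546 to 0.026 when 1 array was left out, above 0 without either array that had GALP in Cy5. The cause was not tested.

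Over all probes, 24 were called higher and 54 lower. The counts were 9 and 26 under normexp with loess, 133 and 139 with GALP in Cy5 only, 140 and 156 in Cy3 only, 96 and 149 without the pool with greater weight loss, 120 and 162 without the pool with less, 53 and 166 with the p-value needed on 1 array of each pool, and 154 and 360 with no p-value. Leaving out 1 array gave 27 to 40 higher (the 40 without the Cy3 array of the less weight loss pool) and 65 to 69 lower, with members at 1 higher and 0 lower. By limma, 0 probes passed an adjusted p of 0.05 (unadjusted, 2049 were under 0.05 on the higher side and 2710 on the lower), as when 1 array was left out, against 95 under normexp with loess, 1 over probes with signal and 106 with the pool as a random block (consensus correlation -0.389). The random-block fit took each array as a unit, although both arrays of a pool held the same extracts. Its negative correlation gave no discount for this. No limma fit could be made on 1 pool. GALP and control were paired within each array by the ratio itself, and the labels give no replicate numbers for a further pairing.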
